A study of Mus musculus with 30 samples.

Results

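Well-measured provisional small RNAs with Gm-type symbols were described across brain, heart, kidney, liver and spleen of Ftsj1-deficient and wild-type mice. Of the 1004 features whose symbol starts with Gm, 60 (5.98%) had a deposited mean of 10 or more in at least 1 of the 5 organs, out of 2194 named features in all. The deposited mean is the average over the 6 libraries of an organ of read counts divided by library size factors. Members were thus selected on level, so their levels are given as a description with no test, whereas the fold change between the genotypes did not enter the choice directly. A member near the threshold can still have passed it through the genotype in which it was higher. Of the Gm-named features that were not members, 545 were listed at 0 in all 5 organs and 399 were above 0 without reaching 10. By contrast 578 of the 1189 Mir-named features (48.6%), which carry the established names of microRNA precursors, reached a mean of 10. Just inside the threshold lay Gm56260 with 10.06 in spleen and Gm55133 with 10.61 in heart, and just outside it lay Gm54913 with 9.92 and Gm56155 with 9.69, both in spleen.

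A symbol of the form Gm plus a number is a placeholder that mouse nomenclature gives to a predicted gene until its product is characterised, so most of these features have no described function. MicroRNAs are cut from RNA hairpins, and their seed bases pair with target messenger RNAs and lower their output. FTSJ1 methylates the ribose of nucleotides in the anticodon loop of certain transfer RNAs, and loss of the human gene causes an X-linked intellectual disability. The study compared small RNAs between the genotypes organ by organ.

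Whole organs came from 6 untreated male mice aged 4 months, 3 labelled Ftsj1_DF and 3 labelled WT, with every organ taken from the same 6 animals (30 libraries). The mice were 2 sets of brothers, and both sets held both genotypes. The allele behind the Ftsj1_DF label is not given in the sources used here. In heart, kidney and liver 1 of the 3 WT libraries belonged to a second batch, and it cannot be told apart in the tables. All libraries of brain and spleen belonged to the first batch. Lists of established organ microRNAs took their highest share in their own organ for all 5 organs, for example 26.2% of the liver total for Mir122, the only liver marker used, against at most 0.0588% elsewhere. One marker of brain and 1 of heart were listed at 0 in their own organ. The authors' tables give the genotype contrast but do not name its numerator. A positive log2 fold change therefore means a higher level on what is called here the positive side of the contrast, and this side need not be the same genotype in each organ. Levels are counts of reads with no length in the files, so the order of members is an order of read counts and not of molecules per length.

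Sequences are shown first, because they say what kind of locus a Gm-named feature can be. Only 3 members were found in the GENCODE M21 annotation (GRCm38), all in the class miRNA with a single short exon, and none was found in the RefSeq gene or microRNA tables. The other 57 members carry 5-digit numbers that start with 54, 55 or 56. In the first 2 lines below, capitals mark the bases paired in the fold predicted by RNAfold within the 30-base stretch that holds the most paired bases. In the last line they mark the seed (bases 2 to 8) of a mature microRNA that lies whole within Gm26377. All are written 5′ to 3′.
Gm22953, chr2:121450730-121450759, minus strand: UUUGCCUUUUucUGCUUCUGCUgCAUgAUC
Gm47279, chr11:23497808-23497837, minus strand: GGGGgaCCCGCGCUGGauCguGgaGgaGCG
mmu-miR-703 within Gm26377, chr9:78478587-78478607, minus strand: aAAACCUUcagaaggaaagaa

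All 3 of these loci overlapped exons of protein-coding genes. Gm26377 (ENSMUSG00000076138.1, 108 bases, 32.4% G and C) lay on the strand of Eef1a1, which encodes a translation elongation factor, in its untranslated exon sequence. Gm47279 (ENSMUSG00000106362.1, 91 bases, 72.5% G and C) lay on the strand of Ahsa2 and overlapped coding and untranslated exon sequence of that gene, a relative of a co-chaperone of HSP90. Gm22953 (ENSMUSG00000080374.1, 101 bases, 54.5% G and C) lay opposite to Serf2, again over coding and untranslated exon sequence, and within Serinc4 on its own strand. Predicted fold energies were -38.7 kcal/mol for Gm22953, -30.4 for Gm47279 and -20.5 for Gm26377. The letters of miR-703 also stand at the annotated Mir703 locus on chromosome 5, and the row Mir703 had means of 33.1 in spleen, 9.09 in kidney and 6.87 in heart. Gm26377 had its highest mean in the same organ, with 96.9 in spleen, 18.6 in kidney and 16.4 in heart. Whether the counting gave a read of these letters to either row, to both or to neither is not given in the sources used here. These values may therefore share reads, and for Gm26377 and Gm47279 reads of the host gene's messenger RNA cannot be told apart either. As the strand setting is not given, the same holds for Gm22953 and reads of Serf2.

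The highest mean of a member ranged from 10.06 to 129812, and a single pair carried most of their reads. Gm54610 had means of 129812 in heart, 120789 in spleen, 49342 in kidney, 31930 in liver and 15716 in brain. Gm54588 had 48285, 61937, 31786, 16004 and 6157 in the same order. This pair made up between 74.8% (brain) and 89.1% (liver) of the members' summed level. In heart and spleen Gm54610 stood at rank 17 among all 2194 features, and in brain at rank 97. Gm56194 followed as the third member in heart, kidney and spleen, with means of 9362, 2692 and 8350, and reached 688 in brain and 508 in liver. Of the 60 members, 15 had a mean of 1000 or more in some organ, 15 peaked between 100 and 1000, and 30 peaked below 100. In all 5 organs 24 members had a mean of 10 or more, and 19 members had one in a single organ.

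Heart and spleen held the largest share of these RNAs and brain the smallest. Together the members made up 2.55% of the summed means in heart, 2.05% in spleen, 0.440% in kidney, 0.284% in liver and 0.181% in brain. Because the tables were normalized separately, organs were compared by each feature's share of the organ total in ppm, where 10000 ppm are 1%. The share of Gm54610 was 15252 ppm in heart and 11249 in spleen, against 2265 in kidney, 1686 in liver and 975 in brain. Gm55094 had 666 ppm in heart and 382 in spleen, but 58.4 in kidney, 17.6 in liver and 5.52 in brain. Gm56171 was steeper still, with 186 ppm in heart, 62.4 in spleen and 0.710 in brain. A larger share of these RNAs and a smaller share of all others cannot be told apart in such data, nor can fewer cells of a type and less RNA per cell.

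**Figure D1:**
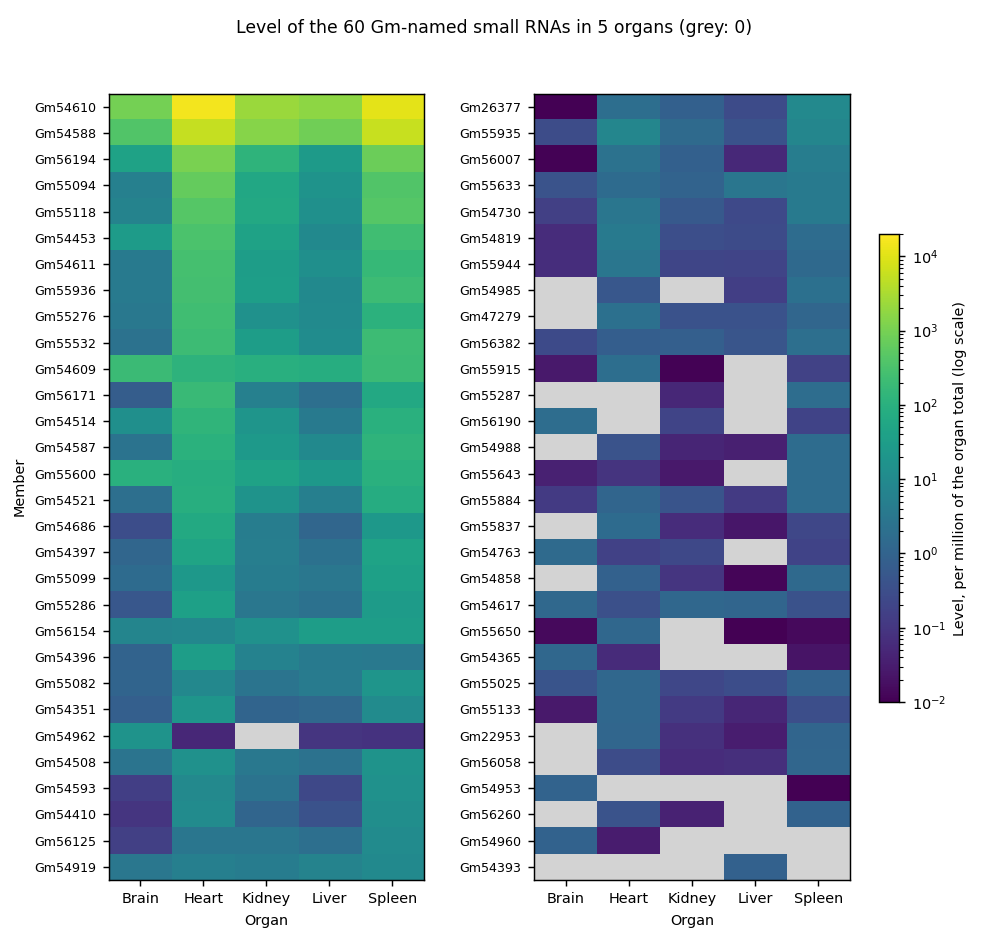
Level of each of the 60 members in the 5 organs, as a share of the organ's summed means on a logarithmic colour scale, with members ordered by their highest level and grey for a listed 0. The heart and spleen columns are the brightest for most members of the left panel, while Gm54609 and Gm55600 are as bright in brain as in spleen and Gm54962 stands out in brain alone.

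The organ pattern of the members was unlike that of the established microRNA precursors. The highest share was in heart for 26 members, in spleen for 24, in brain for 8, in liver for 2 and in kidney for 0. Heart or spleen was thus the highest organ for 83.3% of the members, against 38.2% of the 578 Mir-named features with a mean of 10 or more. Brain was the highest organ for 13.3% of the members and for 47.9% of those Mir-named features. For 42 members (70.0%) heart and spleen were the highest 2 organs, compared with 15.2% of the Mir-named features. Among the 31 members with a mean of 10 or more in brain, the median ratio of the heart share to the brain share was 13.7, and it was 0.391 over 487 Mir-named features with such a mean. Brain was the single lowest organ for 38 members. These counts rest on the level that chose the members and were not tested.

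**Figure D2:**
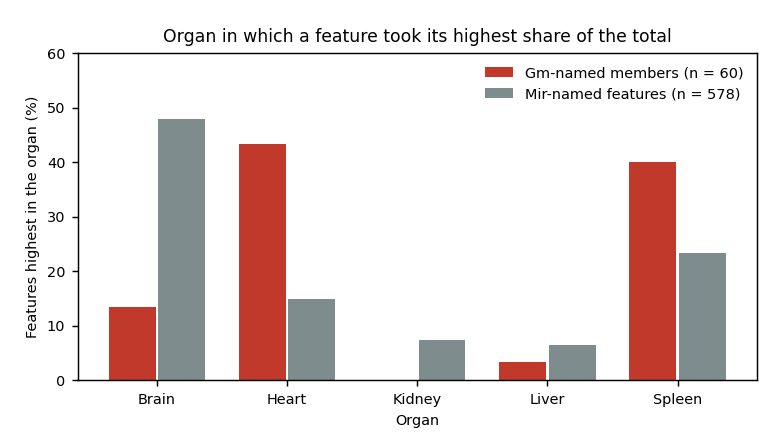
Percent of features that took their highest share of the total in each organ, for the 60 Gm-named members (red bars) and 578 Mir-named features with a mean of 10 or more in an organ (grey bars). Heart holds 26 and spleen 24 of the members, and brain holds 47.9% of the Mir-named features.

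Several abundant members departed from the heart and spleen pattern. Gm54609 varied least between organs among these, by 2.32 times from the lowest to the highest share, with 193 ppm in brain, 193 in spleen, 116 in heart, 95.8 in kidney and 83.4 in liver. Gm55600 was as high in brain as in spleen and lowest in liver, with 102 ppm in spleen, 100.2 in brain, 85.3 in heart, 42.2 in kidney and 23.5 in liver. Gm56154 had its highest shares in liver and spleen, 31.8 and 31.3 ppm, against 8.09 in heart and 7.30 in brain. Gm54396 had 68.2% of its summed shares in heart, at 31.3 ppm against 6.15 in kidney and 3.61 in spleen. In liver Gm55633 reached 2.96 ppm, second to 4.04 in spleen, and in kidney no member had its highest share. The largest kidney fractions were those of Gm54617, at 1.25 ppm against 1.32 in brain, and of Gm56382, at 0.799 against 2.00 in spleen.

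A smaller set was nearly restricted to 1 organ. In 8 members (13.3%) at least 90% of the summed shares lay in a single organ, and so did 24.4% of the Mir-named features. Gm54962, with a mean of 280 in brain, had 98.7% of its summed shares there and at most 0.0965 ppm in any other organ. Its normalized read counts in brain were 317, 294 and 311 on the positive side and 225, 295 and 235 on the negative side, from 1844 reads. All 6 brain libraries held this RNA at a similar level, and the sides met only through 1 library of each. Gm54953 and Gm54960 were also brain features, with means of 16.6 and 15.1 there and 99.0% and 96.8% of their summed shares. Gm54365 completed the brain group with 94.1% and a mean of 20.7.

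Spleen, heart and liver each held such members too, all at means below 20 there. In spleen Gm55287 and Gm55643 had means of 19.7 and 17.7, with 97.3% and 91.5% of their summed shares, and Gm54988 had 77.6% with a mean of 18.2. In heart Gm55650, Gm55915 and Gm55837 had means of 10.9, 15.9 and 13.9, with 97.5%, 89.7% and 84.2% of their summed shares. Gm54393 was listed above 0 in liver alone, with a mean of 17.2. Its normalized counts in liver were 15.1, 76.5 and 0 on the positive side and 0, 10.4 and 1.38 on the negative side. A single library thus held 74.0% of it, and 1 other library on each side held more than 2 reads, with 11 and 16.

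The genotype contrast was clearest in heart, where 2 members were higher on the positive side and passed the adjusted threshold of 0.05. In the authors' deposited table Gm56194 had a log2 fold change of 1.18 (SE 0.26, adjusted p = 0.00219), a mean of 12979 on the positive and 5745 on the negative side. Gm54453 had a log2 fold change of 1.15 (SE 0.31, adjusted p = 0.0243) in that deposited table, a mean of 3947 against 1784. Side means of members above a mean of 600 were computed from the deposited mean and fold change, since their single libraries cannot be recovered. These were 2 of the 4 features called in heart among 355 with an adjusted p, a background of 1.13%. The call of Gm54453 was lost when p-values were adjusted over all 1107 features with a p instead of the 355 that the authors adjusted, with an adjusted p of 0.0756, whereas that of Gm56194 held at 0.00682. Adjusted over the 427 features with a heart mean of 10 or more, both calls held.

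The other members with a heart mean of 1000 or more lay on the same side without passing the adjusted threshold. All 12 members with a heart mean of 1000 or more had a positive fold change, between 0.42 and 1.20 on the log2 scale, and all 12 had an unadjusted p below 0.05. Over the 134 Mir-named features of that level, 58 (43.3%) were positive and 10 had such a p, 2 of them positive. The members of an organ were read from the same 6 libraries, so such counts are not counts of independent results. In the authors' deposited table Gm54514 had a log2 fold change of 1.20 (SE 0.36, adjusted p = 0.0565), with side means of 1603 and 696. Gm55118 had 0.89 (SE 0.28) and Gm55936 had 0.82 (SE 0.25), both with an adjusted p (deposited) of 0.0605. The most abundant pair showed a smaller difference, 0.42 (SE 0.20, adjusted p = 0.319) for both Gm54610 and Gm54588 in the deposited table. Their side means were 148772 and 110851 for Gm54610 and 55343 and 41227 for Gm54588. Whether this pair shares reads is not given in the sources used here.

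Counted over all levels, 18 of 43 members with a heart mean of 10 or more had an unadjusted p below 0.05 in the authors' deposited table, against 10.8% of the 427 features of that level. Of those 18, 17 were positive, against 27 of the 46 features of that level with such a p. Those 27 were 6.32% of the 427 features. Members were 10.1% of the features and 63.0% of the 27 with such a p on the positive side. The median log2 fold change was 0.50 over the 43 members and -0.01 over all features of that level, and 81.4% of the members were positive against 48.2% of all features. The single exception below 0.05 was Gm56154, at -1.05 (SE 0.53, unadjusted p = 0.0465). Gm54609 and Gm55600, whose brain share was above or near their heart share, were at 0.02 (SE 0.29) and -0.30 (SE 0.27). Since the heart group labelled WT held 1 library of the second batch, batch and genotype cannot be fully told apart there, and the part of batch in these values was not tested.

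**Figure D3:**
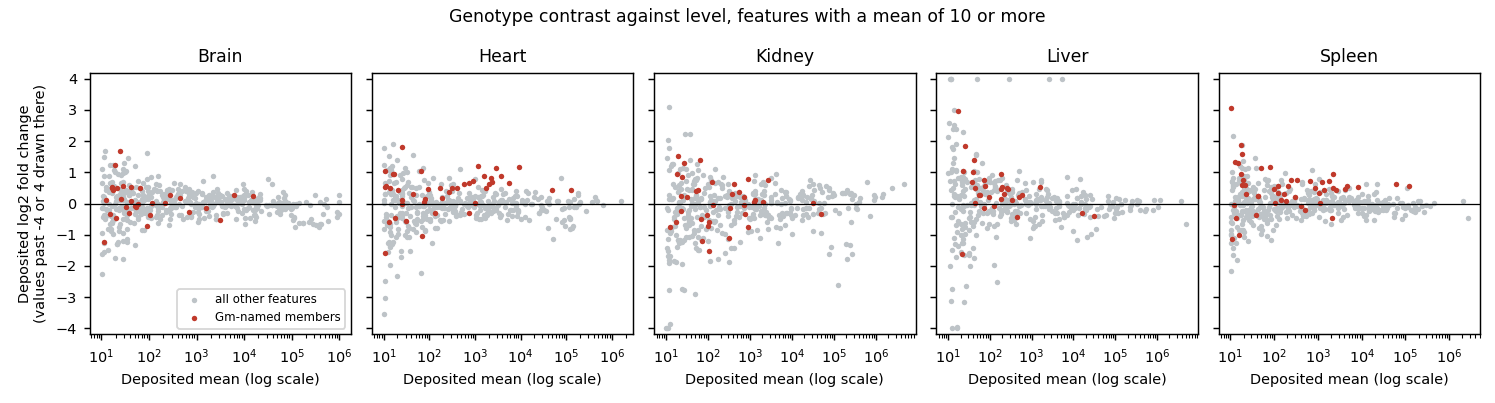
Deposited log2 fold change against the deposited mean on a logarithmic axis, for features with a mean of 10 or more in each organ, with the Gm-named members in red and all other features in grey. In heart the members with a mean of 1000 or more lie above 0, between 0.42 and 1.20, and in spleen 40 of 48 members lie above 0.

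In spleen no member was called, and most had a positive fold change. The authors' DESeq2 test called 0 of 1208 features there (0%), and the smallest adjusted p of a member was 0.988. An unadjusted p below 0.05 was found for 11 of the 48 members with a spleen mean of 10 or more, all positive, against 4.89% of the 450 features of that level in both directions and 4.22% on the positive side. Of the 19 features on the positive side, 11 were members. The median log2 fold change was 0.50 over these members and -0.000251 over all features, and 83.3% of the members were positive against 49.8% of all features. In the authors' deposited table Gm55532 had the smallest p, with a log2 fold change of 0.93 (SE 0.31, unadjusted p = 0.00293) and side means of 2975 and 1561. Gm54588 was at 0.64 (SE 0.27, unadjusted p = 0.0191) and Gm54610 at 0.56 (SE 0.25, unadjusted p = 0.0265) in that deposited table. Gm54609 again differed from the other abundant members, at -0.45 (SE 0.24). All spleen libraries were of the first batch. Their size factors, a measure of depth, were 1.52, 0.743 and 0.628 on the positive side and 1.49, 1.10 and 0.884 on the negative side. The part of depth in the spleen values was not tested.

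Fold changes of single members in heart and spleen can be set side by side only. The organs came from the same mice, and whether the positive side is the same genotype in both tables is not stated, so the direction cannot be compared between them. In the authors' deposited tables Gm54611 was at 0.69 (SE 0.23) in heart and 0.71 (SE 0.28) in spleen. Gm55276 was at 0.62 (SE 0.21) and 0.70 (SE 0.28), and Gm56171 at 0.89 (SE 0.31) and 0.71 (SE 0.31). Less alike were Gm55532, at 0.50 (SE 0.24) and 0.93 (SE 0.31), and Gm56194, at 1.18 (SE 0.26) and 0.52 (SE 0.35). Gm56154 had opposite signs, -1.05 (SE 0.53) in heart and 0.77 (SE 0.34) in spleen.

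**Figure D4:**
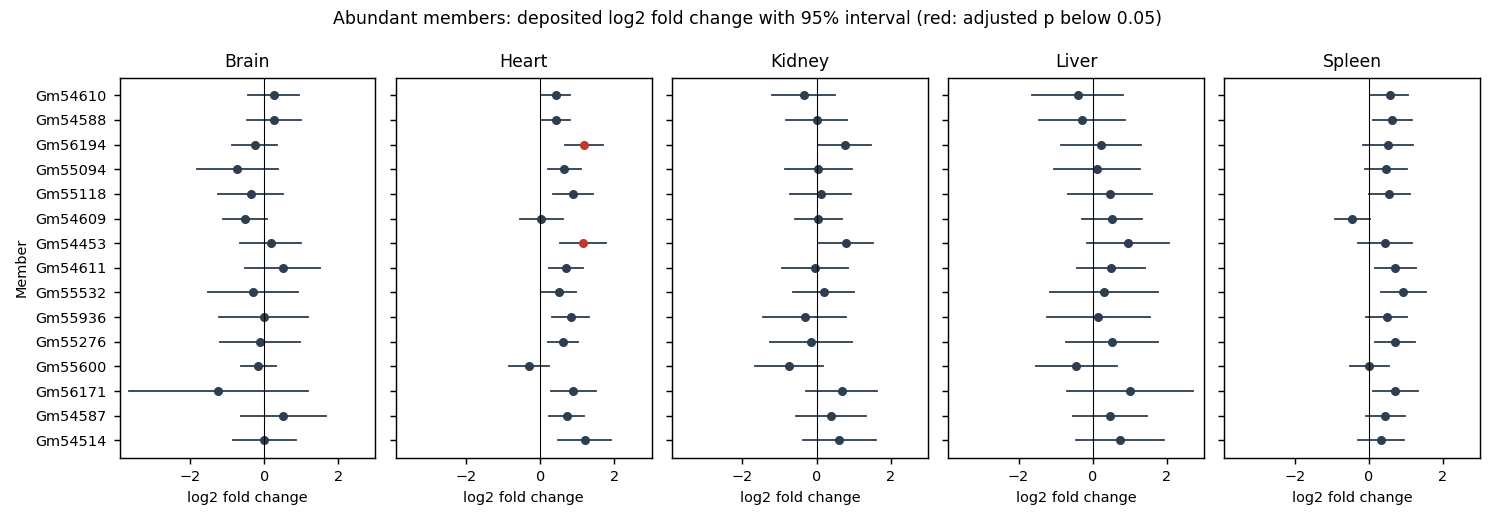
Deposited log2 fold change with its 95% interval from its standard error for the 15 members with a mean of 1000 or more in some organ, ordered by their highest mean from bottom to top. Red marks an adjusted p below 0.05, Gm56194 and Gm54453 in heart. In heart 13 intervals lie above 0 and in spleen 6, in kidney 2, and in brain and liver 0.

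In kidney, liver and brain no member was called by the authors' DESeq2 test, and the smallest adjusted p of a member was 0.975, 0.991 and 0.989. The background of calls was 0% of 1022 features in kidney, 0.229% of 872 in liver and 0% of 1030 in brain. In kidney 3 of 36 members with a mean of 10 or more had an unadjusted p below 0.05, all positive, next to 7.93% of all features in both directions and 1.86% on the positive side. These were Gm56125 at 1.40 (SE 0.68), Gm54453 at 0.79 (SE 0.37) and Gm56194 at 0.76 (SE 0.37) in the authors' deposited table. The last 2 are the members called in heart. The median log2 fold change of the kidney members was 0.05, and 55.6% were positive, against 48.1% of all features.

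Liver members were mostly positive, with wide errors. In liver 24 of 30 members with a mean of 10 or more had a positive fold change, against 50.9% of all features, with a median of 0.39 on the log2 scale. The median standard error of these members was 0.62, and 0 of them had an unadjusted p below 0.05, next to 5.14% of all features in both directions and 1.80% on the positive side. The smallest p-values belonged to Gm54453 at 0.95 (SE 0.57, unadjusted p = 0.0922), Gm54393 at 2.97 (SE 1.91), Gm55286 at 1.40 (SE 0.96) and Gm54351 at 1.83 (SE 1.34) in the authors' deposited table. Gm47279, at a liver mean of 7.38, lay outside this count with a log2 fold change of 6.09 (SE 2.44, unadjusted p = 0.0127, adjusted p = 0.991). Its 25 liver reads came mostly from a single library, at 34.0 normalized counts, with 9.60 and 0 in the other positive and 0, 0 and 0.689 in the negative libraries. The other liver member with an unadjusted p below 0.05, Gm55025 at a mean of 5.71, lay on the negative side (unadjusted p = 0.0186, adjusted p = 0.991, deposited). It had 0 reads in each positive library and 26, 14 and 19 reads in the negative ones, so its sides did not overlap. With 0 reads on a side, these recovered reads could not be checked against the deposited fold change. Size factors, which measure the depth of a library, were at most 0.729 on the positive side of the liver contrast and at least 1.45 on the negative side, so depth and genotype cannot be told apart there. Among 3 members with a liver mean of 1000 or more, Gm54610 was at -0.40 (SE 0.62), Gm54588 at -0.29 (SE 0.59) and Gm54609 at 0.53 (SE 0.41) in the authors' deposited table.

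Brain members showed no common direction. In brain 1 of 31 members with a mean of 10 or more had an unadjusted p below 0.05, against 2.70% of all features in both directions and 1.35% on the positive side. This was Gm54763, a member with 72.5% of its summed shares in brain, with a log2 fold change of 1.69 (SE 0.74, unadjusted p = 0.0224) in the authors' deposited table. The median over the 31 members was 0.09, and 58.1% were positive against 49.9% of all features. The next smallest p-values were those of Gm54609 at -0.52 (SE 0.30), Gm54397 at 1.22 (SE 0.89) and Gm55094 at -0.72 (SE 0.56). Gm54610 was at 0.25 (SE 0.35) and Gm54588 at 0.26 (SE 0.38) in the same deposited table.

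Whole reads per library could be recovered for 134 of the 136 member values with a mean between 10 and 600, and they show how the sides were made up. In heart Gm54686 had normalized counts of 818, 588 and 646 on the positive side and 493, 500.0 and 332 on the negative side. In spleen the same member had 239, 303 and 390.3 against 215, 214 and 126. The sides did not overlap in either organ. In kidney it had 48.9, 35.3 and 78.2 on the positive side and 20.6, 323 and 122 on the negative side, where 1 library held 51.4% of the total. Without that library the log2 ratio of the side means went from -1.52 to -0.40.

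Gm55935 was apart in both heart and spleen. Its normalized counts in heart were 87.5, 75.1 and 106 on the positive side and 50.8, 38.0 and 40.5 on the negative side. In spleen they were 83.5, 143 and 116 against 53.7, 82.5 and 14.7, where the lowest positive and the highest negative library nearly met. Gm54763 in brain had 36.4, 27.3 and 47.9 on the positive side and 14.1, 9.35 and 10.8 on the negative side, with no overlap.

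Gm56154 was low on the positive side in heart and high on it in spleen. In heart its normalized counts were 30.4, 56.3 and 47.9 on the positive and 66.5, 53.0 and 159 on the negative side, which overlapped and owed most of the difference to 1 library. In spleen they were 325, 610.0 and 335 on the positive and 222, 324 and 200.3 on the negative side, apart by the distance between 325 and 324. The small Gm56260 in spleen had 13.1, 18.9 and 22.3 against 6.05, 0 and 0, from 57 reads in all. It was a member only through its spleen mean of 10.06, most of which came from the positive side. Gm55884 also reached a mean of 10 in spleen alone, at 17.7, with side means of 27.9 and 7.52 from the deposited fold change. The places of Gm56260 and Gm55884 among the 11 spleen members with an unadjusted deposited p below 0.05 are thus not free of the selection.

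**Figure D5:**
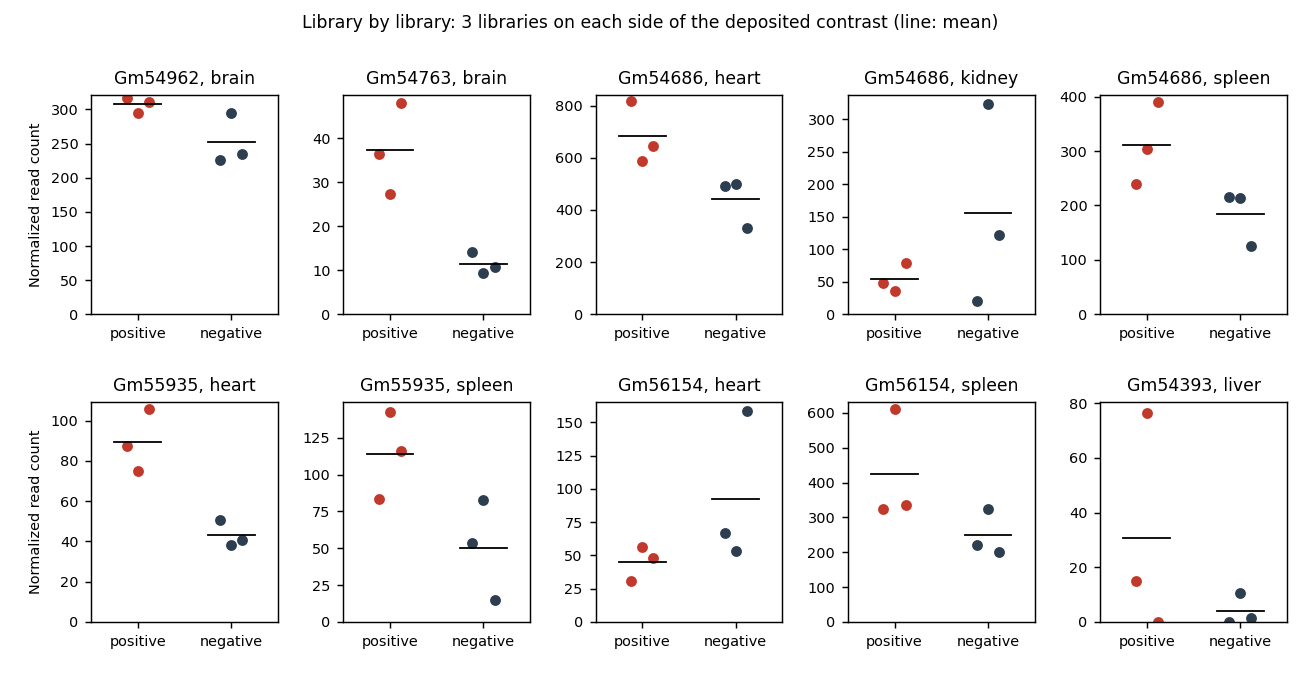
Normalized read count of 6 members in single libraries, with 3 libraries on each side of the deposited contrast and a line at each mean. The sides are apart for Gm54763 in brain, Gm54686 and Gm55935 in heart and spleen and Gm56154 in spleen, and 1 library stands high for Gm54686 in kidney, Gm56154 in heart and Gm54393 in liver.

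Over these 134 values the 2 sides did not overlap in 17, and the positive side was the higher in all 17. That side need not be the same genotype in each organ, and Gm54686 and Gm55935 were counted in both heart and spleen. No share over all features was computed for means of 150 or more, so the 17 cannot be set against one. For means between 10 and 150 every feature could be set beside the members. There the sides did not overlap for 3 of 23 members in brain, 3 of 21 in heart and 3 of 20 in kidney. In liver it was 0 of 16 and in spleen 4 of 24, and the positive side was higher in each case. Over all features of those means the sides were apart in 11.7% (brain), 13.3% (heart), 10.2% (kidney), 12.3% (liver) and 9.09% (spleen). With the positive side higher they were apart in 6.31%, 6.12%, 7.53%, 5.26% and 4.78% in the same order. The members' shares over both directions were 13.0% in brain, 14.3% in heart and 16.7% in spleen, and each member count is of 4 or fewer.

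Within an organ the recovered members varied with the library. In heart their normalized counts were, at the median, 1.13, 0.975 and 1.17 times the member's mean in the positive libraries and 0.744, 1.05 and 0.774 times in the negative ones. Mir-named features of means between 10 and 150 were at 0.819, 0.987 and 0.984 and at 1.00, 0.957 and 1.01 in the same libraries. In spleen the members were at 0.776, 1.16 and 1.39 on the positive side and at 0.879, 0.879 and 0.756 on the negative side, and the Mir-named features between 0.934 and 0.983. The libraries of spleen had size factors of 1.52, 0.743 and 0.628 on the positive side and 1.49, 1.10 and 0.884 on the negative side, in the same order. The members thus stood higher in the shallower positive libraries, but lowest on the negative side in its shallowest library. In liver 1 positive library stood low, at 0.487, while the other positive libraries were at 1.40 and 1.36. One negative library of kidney was low too, at 0.523, and held the lowest count of 12 of 24 members. Thus 1 positive library in spleen and 1 negative library in heart went against the side they belong to, and the sides did not separate library by library.

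Leaving out a library changed the size of these medians. Over the recovered members of heart the median log2 ratio of the side means was 0.42, and it was between 0.17 and 0.55 when any 1 library was left out, with the lowest value without the negative library that stood at 0.744. In spleen it was 0.42, with 0.26 without the positive library that stood at 1.39 and 0.68 without the one at 0.776. In liver it was 0.47, with 0.22 without either of the high positive libraries and 0.81 without the low one. In kidney and brain, at 0.07 and 0.09, leaving out a library turned the sign, with ranges of -0.26 to 0.25 and -0.11 to 0.32. The lowest values were those without the positive libraries that stood at 1.20 in kidney and 1.18 in brain. The abundant members could not be examined in this way.

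No difference of the fold change between organs passed the test for any member. The difference of 2 deposited log2 fold changes was divided by the combined standard error for each of the 10 pairs of organs and adjusted over all features with a statistic in both, which treats organs of the same mice as independent and takes the same numerator in both tables. The background was 1 call among 747 features for kidney and liver (0.134%) and 0% for the other 9 pairs. The smallest adjusted p of a member was 0.306, for Gm56194 between brain and heart, with log2 fold changes of -0.26 and 1.18 and a difference of -1.44 (SE 0.41, unadjusted p = 0.000419). Gm56154 between heart and spleen had a difference of -1.82 (SE 0.63, unadjusted p = 0.00385, adjusted p = 0.9995). At an unadjusted p below 0.05, 4 of 48 members differed between brain and heart, which was 8.33% of the members tested and 2.27% of all features. In each of the other 9 pairs it was between 0 and 2 members, at most 4.00% of them, next to 1.74% to 4.09% of all features. For Gm56194 and Gm54453, called in heart alone, a difference from the other organs is therefore not shown.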

How the data were processed

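Small RNA libraries were prepared with the NEXTflex kit from phenol-extracted RNA, per the labels' protocols. The authors used featureCounts (Subread 2.0.3), GRCm39 and DESeq2, as the submitters' processing notes list them. No source used here gives the annotation, aligner, strand setting or handling of reads that match several features. The deposited mean is a signal, counts divided by size factors and averaged over 6 libraries, per the file headers. Fold changes and their errors are deposited as log2 values, per the file headers. Their Wald statistic is a score as deposited, and a deposited p-value with its adjusted form goes with each, per the file headers. The tables hold no values per sample, so the authors' adjusted p at 0.05 was used in place of a count test, and 0 columns of per-sample values were left unused. From the 2195 rows 1 without a name was dropped (at most 1.82e-05% of a total).

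The members and lists were chosen with earlier results of these data known. Named members are, per organ, the 5 highest means, the 4 smallest p and the 3 largest fractions of the summed shares among means of 10 or more. Members past the threshold, members with a p below 0.05 in at least 2 organs and the 2 features on either side of the membership threshold were added. Members outside this rule (Gm54396, Gm54365, Gm22953, Gm26377, Gm47279, Gm55025, Gm55884, Gm56058 and Mir703, which is no member) were chosen after their values were seen.

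Reads per library were recovered for means below 600. Each mean is a sum of whole reads with 6 library weights, which low means reveal. The split was accepted where only 1 gave back the deposited fold change in a fit of 2 groups of 3. The spread in that fit was set to match the deposited standard error. Splits with 0 reads on a side could not be checked by the fit and were accepted where only 1 split remained. Below a mean of 10 a lone split was accepted even where the fit did not give back the fold change. These rules placed 214 of 216 member values. In simulated data on member means of 10 to 600, 58 of 59 splits were right, 1 was not placed and 0 were wrong. The simulated fold changes came from the same fit, and draws with 0 reads on a side were left out. Members at means below 10 were not simulated. Side means from fold and mean differed from recovered ones by at most 0.473% in 30 values. The test between organs, on simulated data for heart and spleen (959 features, 200 changed), recovered 79 at a log2 difference of 1 and all 200 at 3, with 3 and 10 false calls. The 200 were picked among features with a small standard error in both organs, and the organs were drawn as independent. Recovery for members with larger errors was therefore not measured. Computations used Python 3.11.15, numpy 2.4.6, scipy 1.17.1 and RNAfold 2.7.2. Sequences are from GENCODE M21 and RefSeq (GRCm38). Library totals were not used here, and the number of libraries, 3 a side, limits the precision. The labels name 6 separate mice, so p-values rest on the spread between animals. Neither the sets of brothers nor, in heart, kidney and liver, the second batch could be separated from that spread here.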

Additional observations from a re-analysis of the deposited data

How the results depend on the processing

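In heart the members called went from 2 to 1 when p-values were adjusted over every feature with a p, and also when features without a p were taken in by their statistic. It stayed at 2 when p-values were adjusted over the 427 features with a heart mean of 10 or more. The members' share of the total without the single most abundant feature was 3.15% in heart, 2.75% in spleen, 0.558% in kidney, 0.385% in liver and 0.193% in brain. Heart or spleen was the highest organ for 51, 48 and 47 members by that share, by rank and by the deposited mean, against 50. The order of the 2 organs turned, from 26 heart and 24 spleen members to 22 and 29 by that share and 19 and 28 by the deposited mean. By the deposited mean 49 of 60 members kept their organ, and by rank liver was highest for 6 members in place of 2. Leaving out a library in turn, chosen after seeing the data, moved the median log2 ratio of the recovered members between -0.11 and 0.32 in brain, 0.17 and 0.55 in heart, -0.26 and 0.25 in kidney, 0.22 and 0.81 in liver, and 0.26 and 0.68 in spleen, so that it turned sign in brain and kidney. Without each member's highest library the positive side was higher in 93 of 134 values in place of 95, with 44 changes of sign. The count fell from 25 to 20 of 32 in spleen and from 22 to 17 of 25 in liver. It rose from 16 to 18 of 26 in brain, from 20 to 22 of 27 in heart and from 12 to 16 of 24 in kidney. The median log2 ratio went from 0.42 to 0.20 in spleen, 0.47 to 0.22 in liver and 0.42 to 0.25 in heart. In brain it went from 0.09 to 0.26 and in kidney from 0.07 to 0.12. No paired analysis was possible because the tables hold no values per sample. A count test with edgeR was not run for the same reason.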
